A study of Mus musculus with 12 samples.

Results

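The comparison concerns the pancreatic islets of 4 mice heterozygous for a Wfs1 mutation (Wfs1HZ) and 4 wild-type mice (WT), 8 of the 12 islet RNA libraries of the series. The animals were assigned to the groups by the genotype in their labels, and each animal gave 1 library. The mice were male F2 hybrids of 129S6/SvEvTac and C57BL/6 aged 5 to 6 months, and all 12 came from the Wfs1tm1Koks line. In the mutant allele most of exon 8 of Wfs1 is replaced by a LacZ cassette, so that a fusion of the N-terminal part of WFS1 with LacZ can still be made. Wfs1HZ animals carry 1 such allele and WT animals none. The allele is carried in every cell of the body and the islets were not sorted. Islets were freed with collagenase, picked by hand and kept overnight in high glucose medium before RNA was extracted. A sample therefore holds beta cells together with other endocrine cells and some exocrine, vascular and connective tissue. The remaining 4 animals, homozygous for the mutation (Wfs1KO), are given only as values beside those of the other genotypes. Of the 24078 entries of the table, 13357 had a mean of at least 1 RPKM (reads scaled by transcript length and by the mapped reads of the sample) over the 12 animals, and these are called expressed genes below.

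WFS1 is a membrane protein of the endoplasmic reticulum (ER) that is abundant in beta cells. It is known for its roles in ER calcium balance, in restraining the ER stress response and in keeping insulin granules acidified. Loss of both copies causes Wolfram syndrome, with diabetes and optic atrophy, whereas carriers of 1 mutated copy are usually without disease. The comparison of Wfs1HZ with WT islets asks whether 1 mutated copy is enough to change the islet transcriptome.

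Wfs1 lies on the minus strand of chromosome 5 (mm10, chr5:36966104-36989205) and has 8 exons in its longest annotated transcript. Exon 8 makes up 68% of that transcript, 2575 of 3787 nt, and is the part the cassette interrupts. The exons before it are intact in both alleles, and reads on them count towards the RPKM of Wfs1 whichever allele they came from. The stretch below is printed because it spans the boundary between the exons intact in both alleles and the exon that the cassette interrupts. The stretch does not show where in the gene the cassette begins. It joins the last 60 bases of exon 7 (chr5:36971558-36971617, lower case) to the first 60 bases of exon 8 (chr5:36968619-36968678, capitals), on the minus strand, within the coding sequence.
Wfs1 exon 7 to exon 8: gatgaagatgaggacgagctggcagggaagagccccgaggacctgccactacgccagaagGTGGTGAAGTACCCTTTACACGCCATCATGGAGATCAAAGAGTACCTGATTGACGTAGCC

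Wfs1 was lower in every Wfs1HZ animal than in any WT animal. The WT animals had 33.94, 27.37, 24.85 and 28.43 RPKM, in the order of their replicate numbers. The Wfs1HZ animals had 15.03, 4.69, 16.43 and 8.16 RPKM. Replicates 1 and 3 of Wfs1HZ were at 52.5% and 57.4% of the WT mean, while replicates 2 and 4 were at 16.4% and 28.5%. Wfs1HZ replicate 2 was below 2 of the 4 Wfs1KO animals, whose values were 5.08, 6.61, 3.46 and 2.45 RPKM. The mean level was 28.6 ± 3.83 RPKM (SD, n = 4) in WT and 11.1 ± 5.59 RPKM (SD, n = 4) in Wfs1HZ islets, that is 38.8% of WT, or 46.1% without Wfs1HZ replicate 2. On the log2(RPKM + 0.1) scale, which is used for all fold changes here, the difference between Wfs1HZ and WT was -1.52 (standard error 0.36, unadjusted p = 0.000856 from limma). An exact permutation of the genotypes, two-sided, gave p = 0.029, below which 4 animals in each group cannot go. Wfs1 ranked 2 among the expressed genes by its unadjusted p. Without Wfs1HZ replicate 2 the log2 fold change was -1.17. The level of beta cell genes differed between animals, and Wfs1 was also set against the mean log2 level of the 24 expressed beta cell genes of the same animal. On that measure the WT animals lay at -0.57, -0.11, -0.44 and -0.65 and the Wfs1HZ animals at -0.96, -2.06, -1.54 and -1.94, again with no overlap (difference -1.18, exact two-sided permutation test, p = 0.029).

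**Figure D1:**
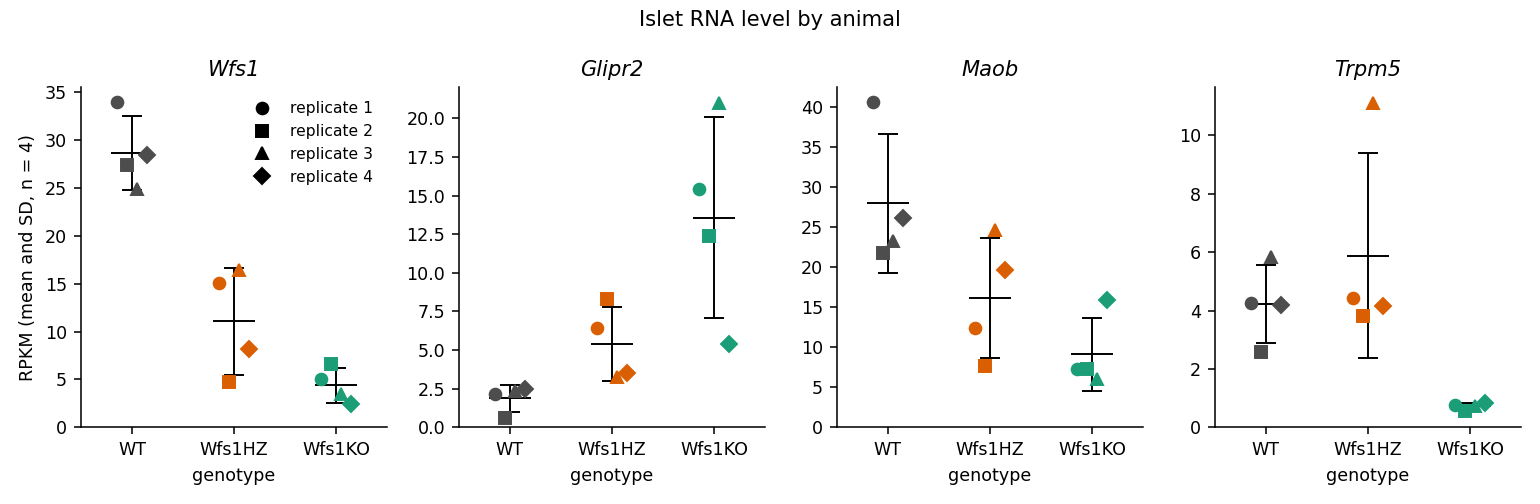
RPKM of Wfs1, Glipr2, Maob and Trpm5 in each animal (y axis) by genotype (x axis). Points are animals with one shape for each replicate number, horizontal lines are means and bars are the SD (n = 4). The Wfs1HZ animals lie below the WT animals for Wfs1 and above them for Glipr2, whereas they overlap for Maob and Trpm5.

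A pair of Wfs1HZ libraries stood apart from the rest in opposite ways. Wfs1HZ replicate 2 held the least insulin and the least acinar RNA of the 8 samples and a high background. Its summed RPKM of Ins1 and Ins2 was 11403, against 28368 to 168273 in WT and 40123 to 129574 in the other Wfs1HZ animals. The 1120 olfactory receptor genes, which serve mainly in the nose, summed to 2966 RPKM in it and to 147 to 453 RPKM in the other 7 animals. Wfs1HZ replicate 4 held the most acinar RNA, with 372342 RPKM over the 27 acinar markers in the table, against 66394 to 146213 RPKM in WT, 133019 and 100488 RPKM in Wfs1HZ replicates 1 and 3, and 11503 RPKM in replicate 2. The values stand for about 2176000 mapped reads in Wfs1HZ replicate 2 and for 2891000 to 8944000 in the other 7 animals, as estimated from the values of short RNA genes. The estimate is far below the read totals that the study gives, but the search for it covered only depths below those totals. Which reads stand behind the RPKM is not known, and all read counts given here rest on that estimate. In whole islets, fewer cells of a type and less RNA per cell cannot be told apart.

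**Figure D2:**
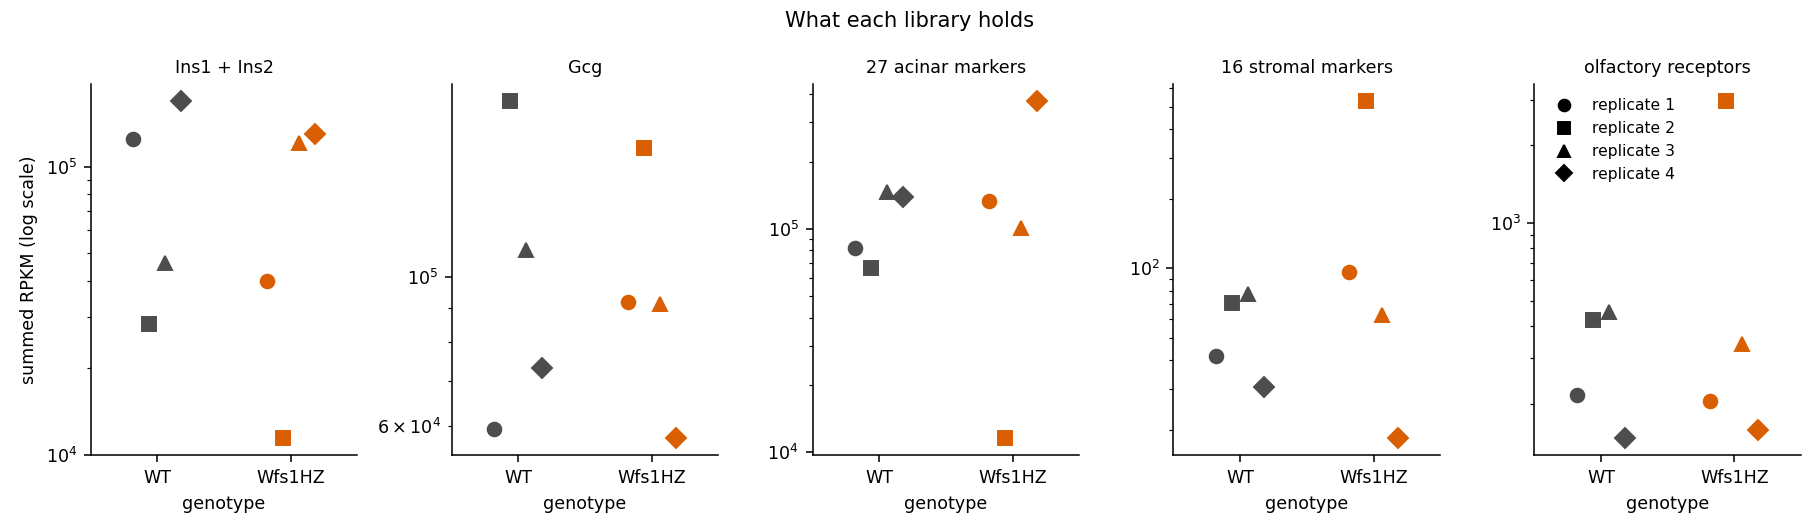
Summed RPKM on log scales (y axes) of the insulin genes, Gcg, 27 acinar markers, 16 stromal markers and 1120 olfactory receptor genes in each of the 8 animals, by genotype (x axis). Points are animals, with one shape for each replicate number. Wfs1HZ replicate 2 (square) is lowest for insulin and acinar RNA and highest for stromal and olfactory receptor RNA, and Wfs1HZ replicate 4 (diamond) is highest for acinar RNA.

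No gene differed between Wfs1HZ and WT islets after correction for the number of genes tested. By limma with Benjamini-Hochberg adjustment, 0 of the 13357 expressed genes (0%) had an adjusted p under 0.05 and 0 (0%) had one under 0.2, and the lowest adjusted p was 0.999. An unadjusted p under 0.05 was found for 289 genes, 2.16% of those tested. Of these, 99 were higher in Wfs1HZ, 0.741% of the genes tested, and 190 were lower, 1.42%. All 4 Wfs1HZ animals lay above all 4 WT animals for 58 genes (0.434%) and below them for 210 genes (1.57%). Without any difference between the genotypes, a share of about 0.05 would on average have an unadjusted p under 0.05. The 2.16% found lies below that share. A share of about 0.029 would on average separate, both directions together. The number of genes of low p or without overlap and their balance of direction depended on the scale and on single libraries, which also changed which genes they were. Genes higher in Wfs1HZ made up 34.3% of the 289, 55.1% of 612 genes after median-of-ratios scaling and 44.6% of 652 genes after quantile normalization. The share was 13.5% of 510 genes without Wfs1HZ replicate 2 and 78.8% of 741 genes without Wfs1HZ replicate 4. The median log2 fold change of all expressed genes was -0.06, and -0.19 and 0.14 without the one and the other library. The 0 genes with an adjusted p under 0.05 became 1 only when the variance was fitted without a trend. That was the microRNA gene Mir147, with an adjusted p of 0.00788 from limma, which had about 1 read in each WT animal and is listed at 0 in each Wfs1HZ animal. The lowest unadjusted p of all expressed genes belonged to the small nucleolar RNA gene Snora31, with 6.1 to 14.96 RPKM in WT and 13.47 to 33.97 RPKM in Wfs1HZ, or about 2.3 to 32.4 reads.

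The genes described next are the 12 in each direction with the lowest unadjusted p among those without overlap between the genotypes that kept a p under 0.05 without Wfs1HZ replicate 2. In all, 21 higher and 77 lower genes met that rule. None of them passed the adjusted test, so they stand in order of rank and none is called changed.

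Among the higher genes, Sun2 came first. It encodes a protein of the inner nuclear membrane that links the nucleus to the cytoskeleton (chr15:79724070-79742536, minus strand). Its values were 14.68, 14.92, 12.19 and 16.01 RPKM in WT and 24.4, 33.08, 37.12 and 22.38 RPKM in Wfs1HZ. The lowest Wfs1HZ animal was above the highest WT animal, and the log2 fold change was 0.99 (standard error 0.25, unadjusted p = 0.00161 from limma). Lmo4, a LIM-domain cofactor of transcription, had 2.38 to 4.44 RPKM in WT and 6.31, 13.46, 5.73 and 5.41 RPKM in Wfs1HZ (log2 fold change 1.18, standard error 0.37). Wfs1HZ replicate 2 was the highest of them, and without it the log2 fold change was 0.88. Stc2, a secreted glycoprotein induced by ER stress, had 2.9 to 4.5 RPKM in WT and 6.27, 16.14, 6.25 and 4.85 RPKM in Wfs1HZ (log2 fold change 1.11, standard error 0.38), which was 0.74 without replicate 2. Ddit4, an inhibitor of the growth kinase mTORC1 that is induced by stress, had 19.6, 20.54, 15.15 and 19.79 RPKM in WT and 28.11, 39.16, 29.78 and 24.16 RPKM in Wfs1HZ (log2 fold change 0.68, standard error 0.25, unadjusted p = 0.0157 from limma). Sepx1, listed in current annotation as Msrb1, encodes a selenoprotein that repairs oxidized methionine and had 3.09 to 5.25 RPKM in WT and 5.35 to 12.76 RPKM in Wfs1HZ (log2 fold change 1.01, standard error 0.35).

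Rras, a small GTPase, had 17.71 to 28.49 RPKM in WT and 29.28 to 39.16 RPKM in Wfs1HZ (log2 fold change 0.66, standard error 0.25). Adamts4, a protease that cleaves aggrecan in the extracellular matrix, had 3.51 to 6.97 RPKM in WT and 12.6, 8, 7.9 and 7.75 RPKM in Wfs1HZ (log2 fold change 0.93, standard error 0.32). Shisa4 had 1.57 to 3.18 RPKM in WT and 4.09 to 7.23 RPKM in Wfs1HZ (log2 fold change 1.18, standard error 0.36). Aim2, a sensor of cytosolic DNA, had 0.4 to 1.48 RPKM in WT and 2.07, 14.63, 1.7 and 2.34 RPKM in Wfs1HZ. The high value came from replicate 2, and the log2 fold change was 1.93 with it and 1.24 without it. Olfr1260, an olfactory receptor, and Cacng7, a subunit of calcium channels and glutamate receptors, were each listed at 0 in WT replicate 3. Olfr1260 had at most 0.48 RPKM in the other WT animals and 1, 6.78, 1.59 and 2.33 RPKM in Wfs1HZ, which is about 22.2 to 62.3 reads. Cacng7 had up to 2.02 RPKM in WT and 2.16 to 3.84 RPKM in Wfs1HZ. Olfactory receptor genes as a class were high in Wfs1HZ replicate 2, and the part of that background in the value of Olfr1260 was not tested. Glipr2, which also belongs to the group, is described with the genes the study followed up.

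The lower genes were headed by Wfs1 and held several genes of mitochondria. Clybl, a mitochondrial lyase that breaks down citramalyl-CoA, had 8.97, 8.89, 5.51 and 6.78 RPKM in WT and 5.15, 2.56, 2.51 and 1.92 RPKM in Wfs1HZ. The log2 fold change was -1.35 (standard error 0.36, unadjusted p = 0.00222 from limma), and the highest Wfs1HZ animal lay just below the lowest WT animal. Aldh1l2, the mitochondrial enzyme that oxidizes formyl-tetrahydrofolate, had 32.73, 28.62, 20.14 and 29.02 RPKM in WT and 15.59, 11.19, 17.31 and 13.79 RPKM in Wfs1HZ (log2 fold change -0.92, standard error 0.26, unadjusted p = 0.00292 from limma). It stands for 147 to 1730 reads in each animal and is among the better read genes of the group. Ccdc90a, now named Mcur1, encodes a regulator of calcium uptake into mitochondria. It had 13.37 to 18.21 RPKM in WT and 6.85 to 11.22 RPKM in Wfs1HZ (log2 fold change -0.79, standard error 0.26). No list of mitochondrial matrix genes was examined, and the 3 genes are described singly.

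Slc4a10, a transporter that carries sodium and bicarbonate and so acts on cell pH, had 7.22 to 13.93 RPKM in WT and 4.18 to 6.26 RPKM in Wfs1HZ (log2 fold change -0.92, standard error 0.3). Atg4a, a protease that processes autophagy proteins, had 2.41 to 3.9 RPKM in WT and 1.15, 1.28, 1.15 and 0.75 RPKM in Wfs1HZ. Its log2 fold change was -1.43 (standard error 0.45), and the Wfs1HZ values stand for about 6.13 to 18.6 reads. Steap1, a membrane metalloreductase-like protein, had 5.61 to 13.71 RPKM in WT and 1.86 to 4.89 RPKM in Wfs1HZ (log2 fold change -1.36, standard error 0.38). C1qa, a chain of complement C1q made mainly by macrophages, had 3.24, 3.49, 2.83 and 2.15 RPKM in WT and 0.87, 0.42, 1.25 and 1.1 RPKM in Wfs1HZ (log2 fold change -1.65, standard error 0.51). The Wfs1HZ values are about 0.95 to 9.55 reads, and the partner chains C1qb and C1qc were below the limit for expressed genes. Fam135a, Fam69b, Wdr25 and BC067068 completed the group, with log2 fold changes of -0.81, -1.51, -1.17 and -0.91.

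**Figure D3:**
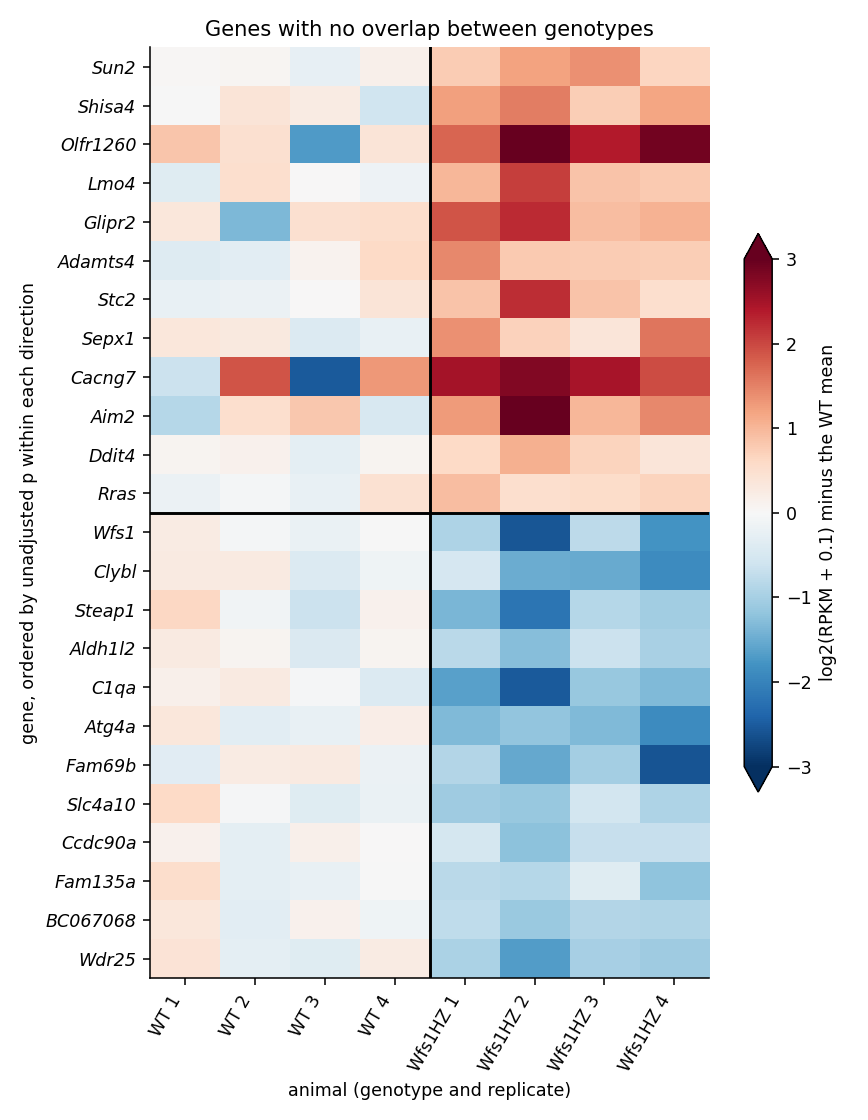
Heat map of the 12 highest ranked genes in each direction (rows) in the 8 animals (columns). Colour is log2(RPKM + 0.1) minus the mean of the 4 WT animals, from blue (lower) to red (higher) and capped at 3 in either direction. Wfs1HZ replicate 2 has the strongest colour for many of the genes. All Wfs1HZ animals have the same sign for a given gene, which the choice of genes without overlap fixed in advance.

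With all 8 animals, genes of beta cell identity and insulin release were mostly a little lower in Wfs1HZ, by less than the spread between animals. Of the 24 expressed genes of beta cell identity and glucose sensing, 3 had a higher and 21 a lower mean in Wfs1HZ. Over all expressed genes 42.9% were higher. The median log2 fold change of the list was -0.38, against -0.06 over all expressed genes. An unadjusted p under 0.05 was found for 1 of the 24, beside 2.16% of all expressed genes. That was Abcc8, the sulfonylurea receptor subunit of the ATP-sensitive potassium channel. Abcc8 had 72.74, 60.55, 44.68 and 54.45 RPKM in WT and 43.06, 16.07, 57.04 and 32.81 RPKM in Wfs1HZ (log2 fold change -0.76, standard error 0.35, unadjusted p = 0.0459 from limma). The groups overlapped, and without Wfs1HZ replicate 2 the log2 fold change was -0.4. The median of the list was -0.17 without that animal, against -0.19 over all expressed genes. Then 9 of the 24 genes were higher, beside 29.9% of all expressed genes. Without Wfs1HZ replicate 4 the median was -0.3 against 0.14, with 5 of the 24 higher beside 65.3% of all expressed genes. Ins1 and Ins2 themselves, named here after their values were seen, varied too much to compare. Ins1 had 57662, 13076, 23203 and 91587 RPKM in WT and 18885, 4981, 51888 and 70521 RPKM in Wfs1HZ, which gave a log2 fold change of -0.55 (standard error 1.14), or 0.21 without Wfs1HZ replicate 2. Ins2 behaved alike, with a log2 fold change of -0.43 (standard error 1.12) and 0.27 without that animal. Mafa, a beta cell transcription factor, was below the limit, with 0 RPKM listed in 7 of the 8 animals.

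Among 16 genes of prohormone processing and granule proteins, 2 were higher and 14 lower (median log2 fold change -0.35). Without Wfs1HZ replicate 2 their median was -0.19, equal to that of all expressed genes. Without replicate 4 it was -0.23 against 0.14. Pcsk2, the convertase that cleaves proinsulin and proglucagon, had 252.45, 296.19, 250.74 and 269.51 RPKM in WT and 205.19, 115.39, 220.11 and 164.64 RPKM in Wfs1HZ. All Wfs1HZ animals were below all WT animals (log2 fold change -0.64, standard error 0.27, unadjusted p = 0.0357 from limma), and the log2 fold change was -0.45 without replicate 2. Of 16 genes of granule exocytosis 1 was higher and 15 were lower. Their median was -0.38, against -0.06 over all expressed genes. It was -0.38 against -0.19 without replicate 2, and -0.29 against 0.14 without replicate 4. Snap25, a SNARE protein of granule fusion, had 147.29 to 166.11 RPKM in WT and 151.72, 113.48, 123.88 and 87.57 RPKM in Wfs1HZ (log2 fold change -0.43, standard error 0.25, unadjusted p = 0.106 from limma). Syt4, a synaptotagmin of granule release, had a log2 fold change of -0.54 (standard error 0.32). None of the 16 genes had an unadjusted p under 0.05 and for none did the animals separate.

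The calcium and ER genes around WFS1 mostly had a slightly lower mean in Wfs1HZ. Of 19 genes of membrane and ER calcium handling 5 were higher, with a median log2 fold change of -0.22 against -0.06 over all expressed genes. Their median was -0.23 against -0.19 without Wfs1HZ replicate 2, and -0.15 against 0.14 without replicate 4. Atp2a2, the SERCA pump that fills the ER with calcium and is a known partner of WFS1, had 336.57, 196.91, 232.58 and 278.93 RPKM in WT and 185.33, 163.57, 224.7 and 163.81 RPKM in Wfs1HZ. Its log2 fold change was -0.49 (standard error 0.27, unadjusted p = 0.0926 from limma). Over 12 known partners of WFS1, 2 were higher and the median was -0.19. For 1 of the 12 the animals separated, with Wfs1HZ lower, beside 1.57% of all expressed genes. That was Atf6, the ER stress sensor that WFS1 is known to hold in check, named here after its values were seen. Atf6 had 56.07, 43.5, 45.4 and 52.16 RPKM in WT and 38.67, 37.02, 40.47 and 31.47 RPKM in Wfs1HZ. The log2 fold change was -0.41 (standard error 0.23, unadjusted p = 0.0868 from limma), and it was -0.42 without Wfs1HZ replicate 2 and -0.34 without replicate 4. The Wfs1KO animals had 60.86, 75.65, 42.61 and 37.93 RPKM of Atf6 and spanned both groups.

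ER stress genes held no common direction in Wfs1HZ islets. Of 19 ER chaperones and folding enzymes 6 were higher (median -0.24, and -0.07 without Wfs1HZ replicate 2), and none reached an unadjusted p under 0.05. Hspa5, the chaperone BiP, had 572.42, 626.53, 1181.38 and 690.31 RPKM in WT and 1247.74, 984.32, 979.17 and 523.48 RPKM in Wfs1HZ, a log2 fold change of 0.28 (standard error 0.38). Hsp90b1, the chaperone GRP94, had a log2 fold change of 0.2 (standard error 0.37). WT replicate 3 was above the other WT animals for both. Of 19 stress sensors and targets of the PERK-ATF4 branch 11 were higher (median 0.04). An unadjusted p under 0.05 was found for 2 of them, beside 2.16% of all expressed genes. They were Ddit4, described above, and Txnip. Txnip, an inhibitor of thioredoxin that is induced by glucose, had 46.13, 68.97, 112.05 and 45.78 RPKM in WT and 87.38, 144.89, 101.39 and 103.13 RPKM in Wfs1HZ. WT replicate 3 lay within the Wfs1HZ range (log2 fold change 0.75, standard error 0.31, unadjusted p = 0.0297 from limma, and p = 0.114 by exact permutation). Of 15 genes of ER-associated degradation 3 were higher (median -0.16), and Ubxn4, the best expressed of them, had a log2 fold change of -0.18 (standard error 0.23). Of 17 genes of the BCL2 family, caspases and calpains, which act in cell death, 10 were higher (median 0.02), and Bax had a log2 fold change of 0.11 (standard error 0.33).

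Among the lists not taken from the study, immediate early genes held the most genes of low p. They encode transcription factors and regulators that cells switch on within minutes of a signal, without new protein synthesis. All 19 expressed members had a higher mean in Wfs1HZ, with a median log2 fold change of 0.54 against -0.06 over all expressed genes. 6 of the 19 had an unadjusted p under 0.05, all higher, beside 0.741% of all expressed genes. For 1 of the 19 all Wfs1HZ animals lay above all WT animals, beside 0.434% of all expressed genes. None of the 19 passed the adjusted test. The level differed between the Wfs1HZ animals. The summed RPKM of the 20 listed genes was 334.5 to 519.6 in WT and 766, 918.4, 647.3 and 435.3 in Wfs1HZ, so that replicates 1, 2 and 3 lay above every WT animal and replicate 4 within the WT range. The median was 0.39 without replicate 2, against -0.19 over all expressed genes. Then 16 of 19 were higher, beside 29.9% of all expressed genes, and 1 had an unadjusted p under 0.05. Without replicate 4 the median was 0.79 against 0.14. Then 19 of 19 were higher, beside 65.3% of all expressed genes, and 9 had an unadjusted p under 0.05. After median-of-ratios scaling the median was 0.61 against 0.01. Of all 13357 expressed genes, 510 had such a p without replicate 2 and 741 without replicate 4. In Wfs1KO islets, compared with the same WT animals, the summed RPKM was 562.7 to 920.4.

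Zfp36, which encodes the mRNA-destabilizing protein tristetraprolin, had the lowest p of the list. It had 36.76, 49.61, 42.21 and 45.22 RPKM in WT and 102.28, 88.54, 93.03 and 48.9 RPKM in Wfs1HZ. Replicate 4 lay just below the highest WT animal and the other 3 were well above it (log2 fold change 0.89, standard error 0.27, unadjusted p = 0.00558 from limma, and p = 0.057 by exact permutation). Egr1, a zinc finger transcription factor, had 40.68, 97.77, 81.58 and 62.28 RPKM in WT and 158.75, 243.22, 105.71 and 65.81 RPKM in Wfs1HZ (log2 fold change 0.93, standard error 0.39, and 0.62 without replicate 2). Jun, a subunit of the AP-1 factor, had 24.39 to 46.82 RPKM in WT and 62.05, 68.82, 71.01 and 29.6 RPKM in Wfs1HZ (log2 fold change 0.78, standard error 0.32). Egr2, related to Egr1, was the gene of the list without overlap, with 2.06, 3.85, 2.18 and 3.29 RPKM in WT and 4.86, 9.59, 4.04 and 3.86 RPKM in Wfs1HZ. The lowest Wfs1HZ animal was barely above the highest WT animal, and the log2 fold change was 0.89 (standard error 0.39) and 0.6 without replicate 2. The remaining 2 of the 6 were Junb and Arc, with log2 fold changes of 0.7 (standard error 0.32) and 1.23 (standard error 0.57).

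The serum response factor binds the CArG box, a motif known from promoters of immediate early genes. In RefSeq promoters (GRCm38.p6, the build of mm10) 16 of the 19 genes had an entry, and 2 of the 16 (12.5%) held a CArG box in the 250 bases before a start site, on either strand. They were Zfp36 and Egr2. Over all 27025 genes with a promoter entry the share was 1.62%, and over the 9418 expressed genes among them 1.47%. The motif TGACGTCA, bound by CREB, was found in 2 of the 16 promoters (12.5%), those of Dusp1 and Btg2, and in 3.09% of those of expressed genes. These matches are letters in a short window and say nothing of binding in islets. The promoters of Zfp36 (chr7:28379229-28379478, minus strand) and Egr2 (chr10:67537619-67537868, plus strand, 1 of 5 annotated starts) are printed as those of the gene with the lowest p and the gene without overlap, with the CArG box in capitals.
Zfp36 promoter: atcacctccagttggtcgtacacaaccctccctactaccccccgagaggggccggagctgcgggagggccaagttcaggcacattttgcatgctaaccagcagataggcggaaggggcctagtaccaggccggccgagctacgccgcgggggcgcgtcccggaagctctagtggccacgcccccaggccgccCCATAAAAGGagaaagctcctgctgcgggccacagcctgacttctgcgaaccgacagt
Egr2 promoter: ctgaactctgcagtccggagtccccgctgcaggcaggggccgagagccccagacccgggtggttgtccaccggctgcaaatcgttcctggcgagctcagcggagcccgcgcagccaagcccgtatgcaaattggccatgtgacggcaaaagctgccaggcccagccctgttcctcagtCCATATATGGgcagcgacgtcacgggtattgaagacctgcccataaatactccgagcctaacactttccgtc

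**Figure D4:**
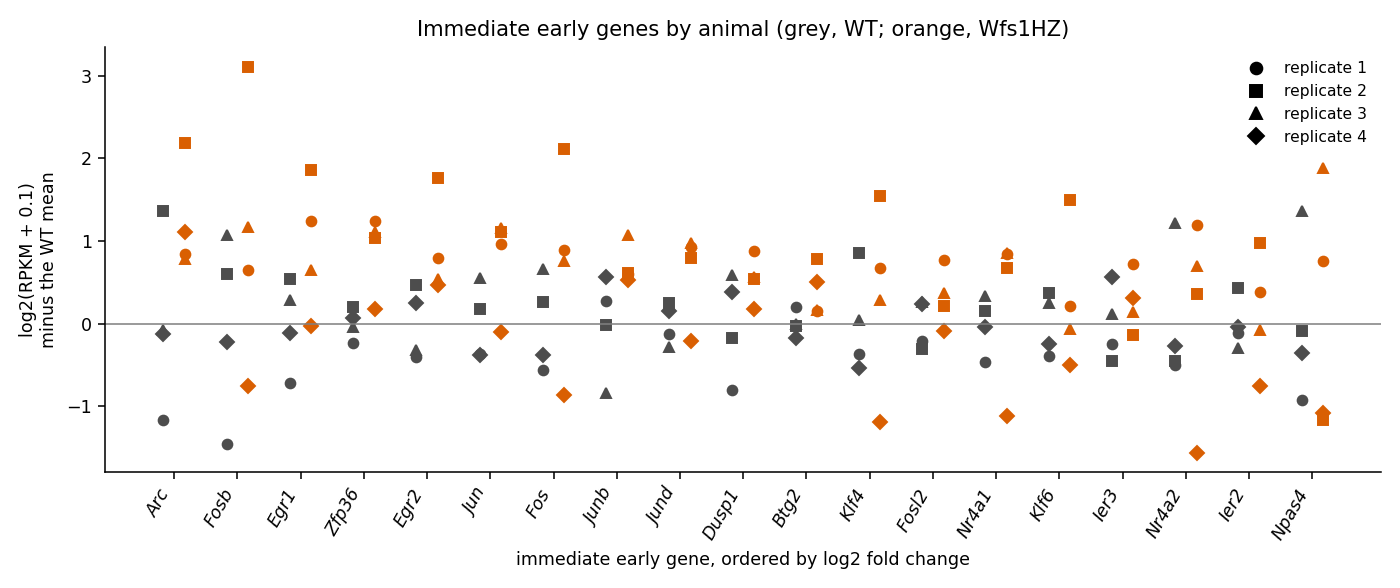
Levels of the 19 expressed immediate early genes (x axis) in each WT (grey) and Wfs1HZ (orange) animal, as log2(RPKM + 0.1) minus the mean of the WT animals (y axis). Shapes mark the replicate number. Wfs1HZ replicates 1 to 3 lie above the line of the WT mean for most genes, and Wfs1HZ replicate 4 (diamond) lies near or below it for most.

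Lists of inflammation, energy metabolism and lipid synthesis held few genes of low p. Of 20 chemokines and NF-kB targets 13 were higher (median 0.12), and 1, Saa3, had an unadjusted p under 0.05, beside 2.16% of all expressed genes. Saa3, an acute phase protein, was lower, with 15.86, 2.73, 3.87 and 9.69 RPKM in WT and 4.61, 1.71, 4.6 and 1.12 RPKM in Wfs1HZ (log2 fold change -1.29, standard error 0.58). Its groups overlapped. The median of the list was 0.4 with 16 higher without Wfs1HZ replicate 2, and 0.3 with 13 higher and 3 of unadjusted p under 0.05 without replicate 4. Without both animals it was 0.76, with 17 higher and 6 of unadjusted p under 0.05, where the median of all expressed genes was 0.04. Of all 13357 expressed genes, 741 had such a p without replicate 4 and 504 without both animals. Of 30 genes of oxidative phosphorylation 5 were higher and 25 lower, none with an unadjusted p under 0.05, and their median was -0.19 against -0.06 over all expressed genes. Without Wfs1HZ replicate 4 it was -0.02 against 0.14, with 12 higher. The ATP synthase subunits Atp5b and Atp5a1 had log2 fold changes of -0.25 (standard error 0.33) and -0.23 (standard error 0.27). Of 16 genes of cholesterol synthesis 11 were higher (median 0.07), and Sqle and Fdft1, enzymes around squalene, had log2 fold changes of -0.34 (standard error 0.31) and -0.25 (standard error 0.25). Only 10 of 20 cell cycle genes were expressed, with 7 higher and a median of 0.45 that was 0.06 without Wfs1HZ replicate 2. Mcm3, part of the replication helicase, had a log2 fold change of 0.52 (standard error 0.43).

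Markers of the other cells of an islet preparation varied widely between animals of a genotype. Of 13 markers of alpha, delta and PP cells 5 were higher (median -0.06). Gcg, proglucagon, had 59440 to 182240 RPKM in WT and 57527 to 155286 RPKM in Wfs1HZ, and Ppy, pancreatic polypeptide, had a log2 fold change of 0.36 (standard error 0.65). Of 27 acinar markers 6 were higher, with a median of -0.2 that was 0.68 without Wfs1HZ replicate 2 and -0.75 without replicate 4. An unadjusted p under 0.05 was found for 1 of the 27, beside 2.16% of all expressed genes. That was Bhlha15, known as Mist1, a transcription factor of secretory cells. It had 5.82, 4.15, 6.23 and 7.45 RPKM in WT and 3.96, 1.81, 3.12 and 3.45 RPKM in Wfs1HZ, without overlap (log2 fold change -0.94, standard error 0.35, unadjusted p = 0.0185 from limma). Wfs1HZ replicate 4, the animal with by far the most acinar RNA, was below every WT animal for this gene. Beside it, the Wfs1KO animals had 13.43, 14.44, 9.54 and 5.26 RPKM. Bhlha15 is on the study's list for Wfs1KO against Wfs1HZ, which was chosen with these same Wfs1HZ animals.

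Of 16 ductal markers 11 were higher (median 0.27). Of 14 endothelial markers 13 were higher, with a median of 0.57 against -0.06 over all expressed genes, and none had an unadjusted p under 0.05. Their median was 0.4 against -0.19 without replicate 2 and 0.91 against 0.14 without replicate 4. The adhesion molecules Pecam1 and Cdh5 of endothelial cells had log2 fold changes of 0.83 (standard error 0.51) and 0.74 (standard error 0.47), and their summed list level was 42.5 to 117.5 RPKM in WT and 193.2, 141.9, 104.9 and 40 RPKM in Wfs1HZ. The immediate early genes and the endothelial markers were both lowest in replicate 4 and highest in replicates 1 and 2 among the Wfs1HZ animals, and the part of these cells in the level of the immediate early genes was not tested. Of 15 expressed stromal markers 14 were higher with a median of 0.84, but this rested on 1 library. Their summed level was 30.6 to 77.1 RPKM in WT and 96.1, 527.8, 62.8 and 18.3 RPKM in Wfs1HZ, and the median was 0.04 without replicate 2. The matrix genes Dcn, Mgp and Col1a2 had log2 fold changes of 0.86, 0.93 and 1.19, and of -0.02, 0.23 and 0.09 without that animal. Of 13 expressed immune markers 7 were higher (median 0), and 1, C1qa, had an unadjusted p under 0.05, beside 2.16% of all expressed genes. Of 10 Schwann and neural markers 4 were expressed, with 1 higher (median -0.07), and Mbp had a log2 fold change of 0.24 (standard error 0.31).

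**Figure D5:**
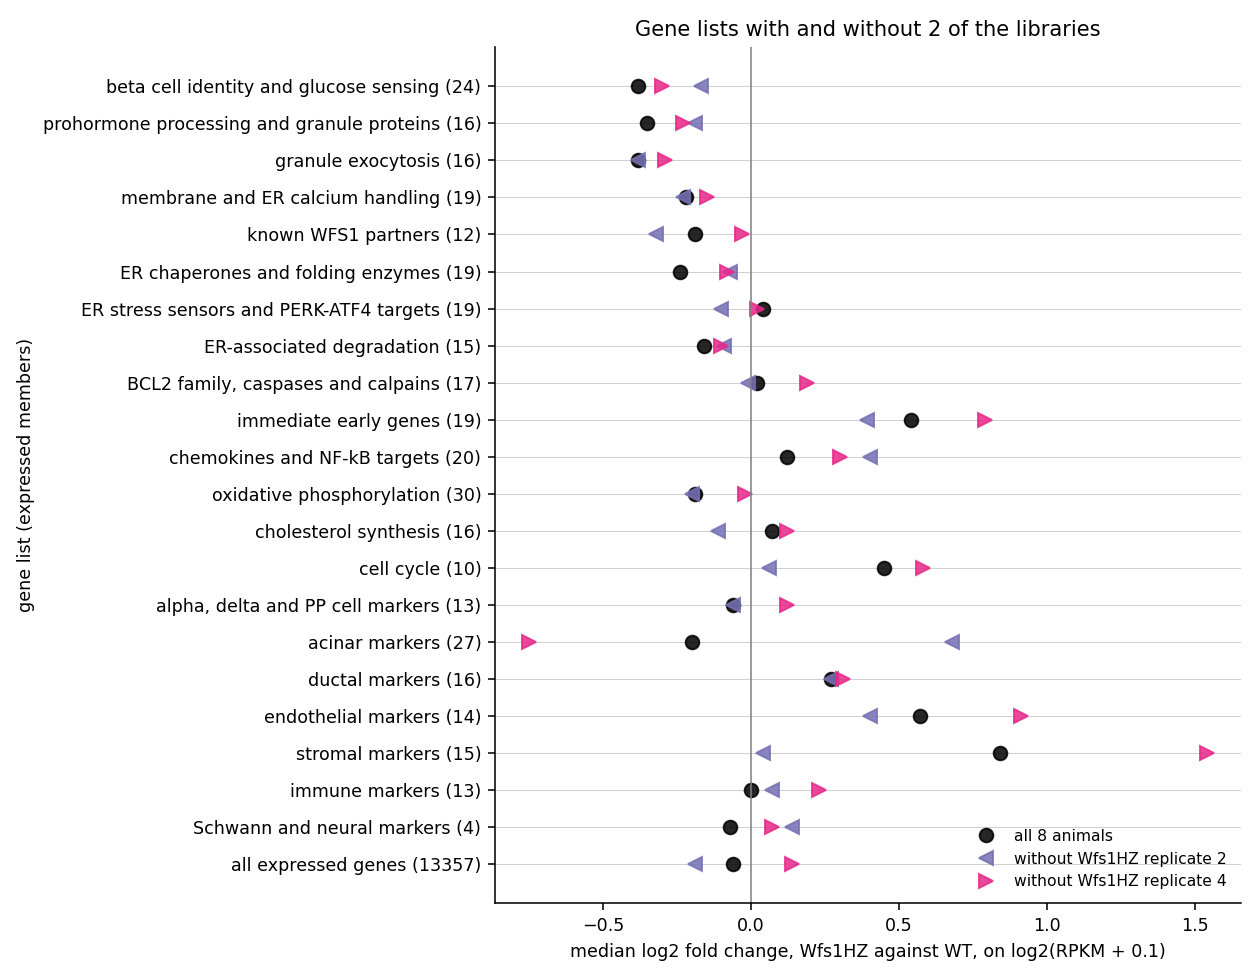
Median log2 fold change between Wfs1HZ and WT (x axis) of each gene list (y axis, with the number of expressed members) and of all expressed genes. Black circles are all 8 animals, purple triangles leave out Wfs1HZ replicate 2 and pink triangles leave out Wfs1HZ replicate 4. The acinar median goes from -0.75 to 0.68 with the library left out, and the stromal median from 1.54 to 0.04. The medians of most lists keep their sign, those of stromal markers, granule exocytosis and immediate early genes among them.

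Genes that the study reported for Wfs1KO islets were also read in Wfs1HZ. The study chose its list for Wfs1KO against WT on these samples, with the same WT animals, so the list is no independent evidence of a direction in Wfs1HZ. Of its 20 genes 19 were expressed, and 10 of them were higher in Wfs1HZ (median log2 fold change 0.15). An unadjusted p under 0.05 was found for 7, 5 higher and 2 lower, beside 2.16% of all expressed genes. They were Wfs1, Zfp36 and Egr1, described above, Glipr2, Maob, Itgb3 and Prss23. Glipr2, a protein tied to the Golgi and to autophagy, had 2.13, 0.6, 2.36 and 2.46 RPKM in WT, 6.4, 8.29, 3.28 and 3.53 RPKM in Wfs1HZ and 15.44, 12.4, 20.99 and 5.38 RPKM in Wfs1KO. Every Wfs1HZ animal was above every WT animal (log2 fold change 1.52, standard error 0.5, unadjusted p = 0.00831 from limma), and the log2 fold change was 1.28 without replicate 2. Maob, the monoamine oxidase that degrades dopamine, had 40.7, 21.75, 23.25 and 26.22 RPKM in WT and 12.47, 7.72, 24.61 and 19.67 RPKM in Wfs1HZ. Wfs1HZ replicate 3 was within the WT range (log2 fold change -0.88, standard error 0.35, unadjusted p = 0.0261 from limma), and the Wfs1KO animals had 6.05 to 15.94 RPKM. Itgb3, an integrin subunit, had 1.5 to 3.95 RPKM in WT and 4.24 to 9.4 RPKM in Wfs1HZ, without overlap (log2 fold change 0.94, standard error 0.4). Prss23, a serine protease, had a log2 fold change of 0.77 (standard error 0.33).

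Trpm5, Gad1 and Apoe of that list had no unadjusted p under 0.05 in Wfs1HZ. Trpm5, a calcium-activated cation channel of beta cells, had 4.25, 2.57, 5.85 and 4.19 RPKM in WT and 4.42, 3.83, 11.12 and 4.16 RPKM in Wfs1HZ, against 0.55 to 0.83 RPKM in Wfs1KO. Its log2 fold change between Wfs1HZ and WT was 0.38 (standard error 0.4). Gad1, which makes GABA, had 3.13 to 10.4 RPKM in WT, 2.53 to 10.18 RPKM in Wfs1HZ and 0.37 to 1.53 RPKM in Wfs1KO (log2 fold change between Wfs1HZ and WT -0.12, standard error 0.44). Apoe, a lipid carrier, had 3.72 to 6.54 RPKM in WT and 9.14, 34.73, 11.01 and 3.32 RPKM in Wfs1HZ, and its log2 fold change of 0.99 (standard error 0.53) became 0.41 without replicate 2. Dpep1, a dipeptidase that is not on that list, had 0.14 to 0.69 RPKM in WT and 3.1, 27.48, 1.81 and 0 RPKM in Wfs1HZ. Its log2 fold change also depended on single animals, at 2.12 (standard error 1.3, unadjusted p = 0.126 from limma), 0.87 without replicate 2 and 3.57 without replicate 4. Of 12 genes used here from the study's list for Wfs1KO against Wfs1HZ, which is longer, 5 were higher in Wfs1HZ than in WT (median -0.09). Bhlha15 alone of the 12 had an unadjusted p under 0.05, beside 2.16% of all expressed genes. The study chose that list with the same Wfs1HZ animals, so it is no independent evidence of a direction in Wfs1HZ, for Bhlha15 or the others.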

How the data were processed

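Islet RNA of 12 animals was sequenced, 4 for each genotype, and the 8 WT and Wfs1HZ animals were compared. The authors amplified 10 ng of RNA (Ovation kit), sequenced the cDNA on a SOLiD instrument, mapped reads to mm10 with LifeScope and deposited RPKM for each gene and animal. The tool and annotation behind the RPKM are not given in the sources used here, and the authors tested counts with edgeR, which RPKM do not allow. RPKM were used as deposited. The table holds no depth, and the read totals of the study are not given by sample. Depth was estimated from the steps between values of genes under 200 nt. In WT and Wfs1HZ 78.3% to 97.1% of low values were within 0.1 of a whole read. The step was fitted to these same values, so the share is no independent check of the depth. The estimates are far below the totals of the study, which lay outside the depths searched, so the search could not have returned them. At the estimated depth 3 reads on a transcript of 2 kb are 0.168 to 0.689 RPKM, counting error only.

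Genes averaging 1 RPKM or more over 12 animals were tested on log2(RPKM + 0.1) with limma 3.58.1 in R 4.3.3 (trended variance, WT and Wfs1HZ only, Benjamini-Hochberg adjustment). The fit was tried on simulated data in which every animal had independent noise of the same size, so libraries that stand apart were not covered. Each p measures the spread between animals. Single genes also had an exact two-sided permutation test. The named genes were Wfs1, Dpep1, the genes of the study's RT-PCR, the 12 per direction with the lowest p without overlap (predicted genes, clones, small RNAs and duplicated loci left out; p under 0.05 also without Wfs1HZ replicate 2), and up to 4 members of each list with p under 0.05 or otherwise up to 3 of the best expressed; others are marked as named after their values were seen. Lists were described by counts and medians, not tested. The comparison, the members and the lists were chosen with earlier results of these data known. Alternatives in pseudocount, filter, scaling, variance, weights, blocking and animals were fitted. Coordinates are from GENCODE M21, to which 22646 of 24078 entries were matched by symbol, and promoters are from RefSeq. 969 entries are marked as copies of a locus, and reads of such genes may be split between copies. A few genes that the naming rule picked are not reported here.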

Additional observations from a re-analysis of the deposited data

Results flagged for a closer look

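In a group of 4 animals, the highest or lowest animal was marked where its gap to the nearest other was above the 95% critical value of Dixon's ratio of gap to range, on the log2(RPKM + 0.1) scale. Of 134 such checks over the genes named in the text, 13 were marked, and chance alone marks about 1 in 20. Wfs1HZ replicate 2 was high for Lmo4 (13.46 RPKM, others 5.41 to 6.31) and Aim2 (14.63 RPKM, others 1.7 to 2.34). Wfs1HZ replicate 3 was high for Trpm5 (11.12 RPKM, others 3.83 to 4.42), Syt4 (85.11 RPKM, others 44.6 to 48.39) and Junb (20.28 RPKM, others 13.95 to 14.72). Wfs1HZ replicate 1 was high for Adamts4 (12.6 RPKM, others 7.75 to 8), and Wfs1HZ replicate 4 was low for Jun (29.6 RPKM, others 62.05 to 71.01). Among WT animals, replicate 2 was low for Glipr2 (0.6 RPKM, others 2.13 to 2.46) and Fdft1 (22.41 RPKM, others 33.18 to 34.49) and high for Snora31 (14.96 RPKM, others 6.1 to 6.97). WT replicate 3 was low for Ddit4 (15.15 RPKM, others 19.6 to 20.54), listed at 0 for Olfr1260 (others 0.33 to 0.48 RPKM) and high for Hsp90b1 (1146.25 RPKM, others 643.82 to 685.64).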

How the results depend on the processing

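The number of genes with an adjusted p under 0.05 or 0.2 was 0 under every alternative except variance without trend, where it was 1 for both. The 289 genes with an unadjusted p under 0.05 became 511 with a minimum mean of 0.1 RPKM, 177 with a minimum of 5 RPKM, 628 with no filter, 612 with median-of-ratios scaling, 652 with quantile normalization and 782 with sample weights. With single animals left out they numbered 137 (without WT replicate 1) to 741 (without Wfs1HZ replicate 4). Leaving out Wfs1HZ replicates 2 and 4 together, chosen after seeing the data, gave 504. The 268 genes without overlap became 441 and 475 after the same 2 scalings, 355 to 794 with single animals left out and 1523 without Wfs1HZ replicates 2 and 4, where fewer animals have to separate. The share of higher genes among those with an unadjusted p under 0.05, 34.3%, was 46.2%, 24.3% and 43.9% with these filters, 55.1% and 44.6% after the scalings, 40.4% without a variance trend, 50.6% with sample weights, 58.5% without Wfs1HZ replicates 2 and 4, and 13.5% to 78.8% with single animals left out. The cause of these shifts was not tested.

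Animals with the same replicate number are different mice, and their deviations from the group means correlated by 0.02, 0.31, -0.07 and 0.34. Whether animals of the same number shared a batch was not tested. With the replicate number as a block 707 genes had an unadjusted p under 0.05, of which 36.9% were higher, and 0 passed adjustment. In 2 of 4 cases a Wfs1HZ animal correlated best with the WT animal of its own number.

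Wfs1 stayed lower under every alternative, with log2 fold changes of -1.76 to -0.85. Of the 66 other named genes 58 kept their sign under all alternatives. Gad1 became 0.33 with sample weights and without Wfs1HZ replicates 2 and 4, and -0.42 to 0.24 with single animals left out. Bax was -0.11 to 0.33 with single animals left out. Atp5b became 0.05 with quantile normalization, and Atp5a1 0.01 without Wfs1HZ replicates 2 and 4. Gcg became 0.02 and 0.28 after median-of-ratios scaling and quantile normalization, and -0.3 to 0.25 with single animals left out. Dcn was -0.02 to 1.54, Ins1 -1.07 to 0.21 and Ins2 -0.87 to 0.27 with single animals left out, and Ins2 became 0.15 with sample weights and 0.06 without Wfs1HZ replicates 2 and 4. None of these genes had an adjusted p under 0.05 in the fit reported. Depth limits genes of low level most, since in Wfs1HZ replicate 2 a transcript of 2 kb needs 0.689 RPKM to reach 3 reads.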
